A study of Mus musculus with 6 samples.

Results

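The 9 genes described here serve the housekeeping work of the Müller cell, the large radial glial cell of the retina, and were followed in oxygen-induced retinopathy: the potassium channel genes Kcnj10 and Kcnj2, the water channel gene Aqp4, the glutamate transporter gene Slc1a3, the glutamine synthetase gene Glul, the bicarbonate transporter gene Slc4a4, the lipid transporter gene Abca8a, the receptor gene Gpr37 and the secreted-protein gene Dkk3. They were chosen by name, 9 of 54532 genes in the deposited count table, and each name matched 1 gene ID. RNA sequencing had profiled 3 OIR and 3 normal retina samples, all at postnatal day 17 and from C57BL/6J mice labelled wild type. OIR is the common short form of oxygen-induced retinopathy, in which pups kept in high oxygen lose retinal capillaries and, back in room air, develop hypoxia and vessel tufts. The labels used here give no oxygen schedule. The labels do not say whether each library came from a separate animal, so the p-values reflect only the spread among these libraries.

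Müller cells span the whole thickness of the retina and keep the fluid around its neurons constant. They take up potassium released by active neurons through inward-rectifier channels, of which Kir4.1 (Kcnj10) is the main one, and pass it on to vessels and vitreous, together with water through aquaporin 4 (Aqp4) at their endfeet. They clear glutamate with GLAST (Slc1a3), turn it into glutamine with glutamine synthetase (Glul) and move bicarbonate with NBCe1 (Slc4a4). Retinal astrocytes share several of these genes, so levels in retina are not those of Müller cells alone.

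Of the 9 genes, 5 were lower in OIR retina (Abca8a, Kcnj10, Aqp4, Glul and Gpr37), 1 was higher (Slc4a4) and 3 did not pass the test (Dkk3, Slc1a3 and Kcnj2). A gene was called when edgeR's quasi-likelihood test gave a Benjamini-Hochberg adjusted p under 0.05, adjusted over all 17108 genes tested; all 9 passed the filter on low counts. Over those genes, 8.73% were called lower, 11.1% higher and 19.8% in either direction. The median log2 change was -0.54 over the 9 genes and 0.01 over all genes tested. OIR and normal libraries did not overlap for 7 of the 9, as for 36.8% of all genes tested. The falls were moderate: the 5 genes that fell were at 50.5% to 68.7% of the normal level in the fit, and Slc4a4 was 1.74-fold higher. In bulk retina, fewer cells of a type and less RNA per cell cannot be told apart.

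**Figure D1:**
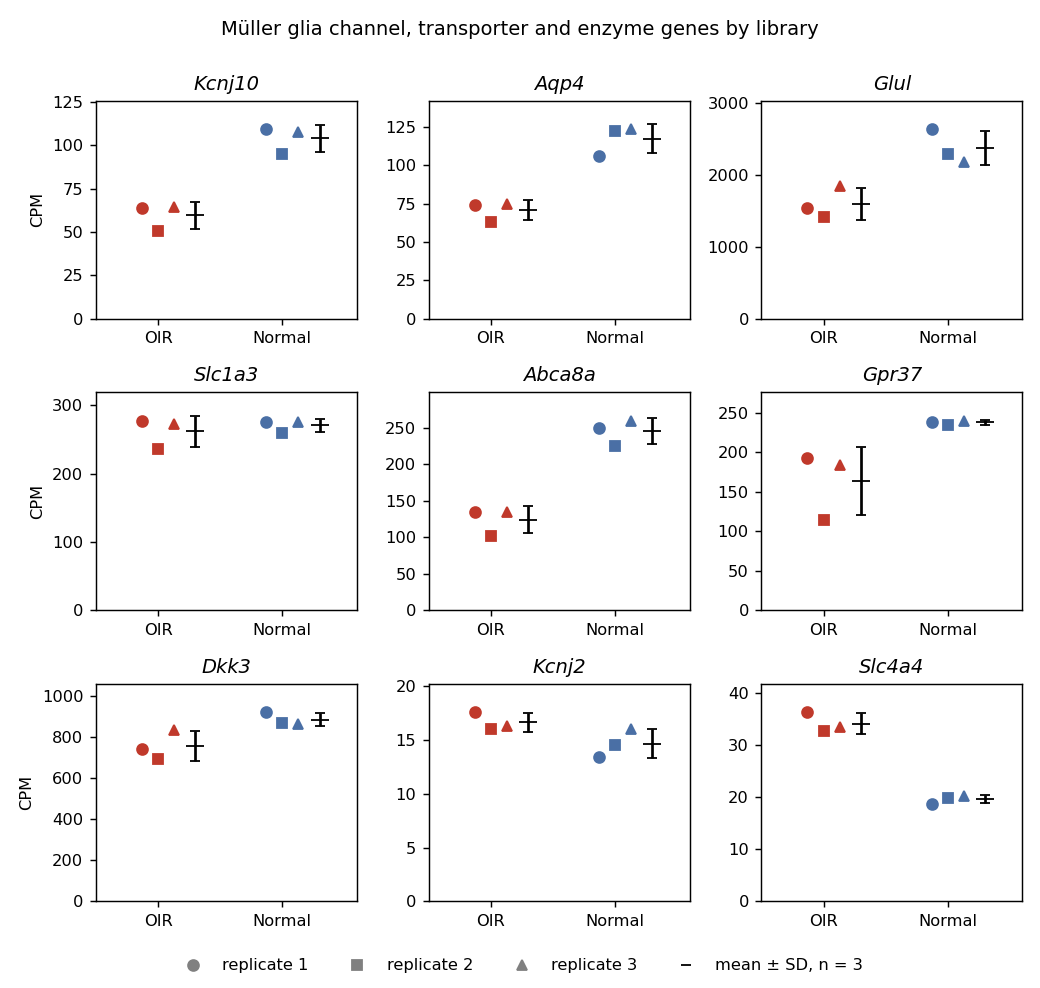
Level of each of the 9 genes in counts per 1e6 scaled counts (CPM, y axis from 0) in the 3 OIR and 3 normal libraries, with the replicate shown by the symbol and the mean ± SD in black. For Abca8a, Kcnj10, Aqp4, Glul, Gpr37 and Dkk3 the OIR libraries all lie below the normal ones, for Slc4a4 they all lie above, and OIR replicate 2 (square) is the lowest OIR library in every panel.

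The libraries held 15818168 to 17163513 counts. A first principal component with 54.9% of the variance separated OIR from normal libraries. Amacrine markers, which fit the retina label, summed to 841 to 903 CPM in OIR and 1135 to 1218 CPM in normal libraries. Lens genes, a sign of carry-over in dissection, summed to 4330 CPM in OIR replicate 3, against 61.0 to 267 CPM in the other OIR libraries and 6.05 to 281 CPM in normal libraries. By Xist and Y-linked counts, OIR replicate 2 and normal replicates 1 and 3 came from males and the others from females, so each group held RNA of at least 2 animals.

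Kcnj10 encodes Kir4.1, the inward-rectifier potassium channel that sets the resting potential of Müller cells. The gene lies on chromosome 1, 172341210 to 172374085, plus strand (mm10), and no other annotated gene overlaps it. Its level was 63.9, 50.7 and 64.4 CPM in OIR libraries and 109, 95.2 and 108 CPM in normal libraries. Every OIR library was below every normal library. It averaged 59.7 ± 7.81 CPM in OIR and 104 ± 7.81 CPM in normal retina (SD, n = 3 each), a log2 change of -0.80 with a standard error of 0.103 (adjusted p of 0.000385 in edgeR).

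Aqp4, the water channel of glial endfeet, was also lower. It is encoded on chromosome 18, 15389394 to 15403684, minus strand. OIR libraries had 73.9, 63.2 and 75.0 CPM and normal libraries 106, 122 and 124 CPM, again without overlap. The means were 70.7 ± 6.54 CPM in OIR and 117 ± 9.54 CPM in normal retina (SD, n = 3 each). The log2 change was -0.73 with a standard error of 0.0913 (edgeR adjusted p of 0.000309). The ratio of Aqp4 to Kcnj10 counts within a library, which needs no scaling between libraries, differed by 0.08 on the log2 scale between OIR and normal retina (exact two-sided permutation p = 0.7).

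Kcnj2 encodes Kir2.1, a strongly rectifying potassium channel of the same family that endothelial cells and microglia also use. The gene lies on chromosome 11, 111066164 to 111076821, plus strand. It had 17.6, 16.04 and 16.3 CPM in OIR libraries and 13.4, 14.5 and 16.1 CPM in normal libraries, and the groups overlapped. The log2 change was 0.18 (95% interval -0.14 to 0.51; edgeR adjusted p of 0.324). The log2 ratio of Kcnj10 to Kcnj2 counts averaged 1.83 ± 0.164 in OIR and 2.82 ± 0.172 in normal libraries (SD, n = 3 each). It was lower by 0.99, without overlap, with an exact two-sided permutation p = 0.1, the smallest that 3 samples against 3 allow. This ratio does not depend on the scaling between libraries. Over the same libraries the summed level of the 8 endothelial markers was 281 to 319 CPM in OIR and 118 to 172 CPM in normal retina, and that of the 8 microglial markers was 95.9 to 129 CPM in OIR and 62.4 to 75.0 CPM in normal retina. Their part in the Kcnj2 level was not tested.

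Slc1a3 encodes GLAST, the glutamate transporter that Müller cells use to clear the transmitter of photoreceptors and bipolar cells. It lies on chromosome 15, 8634124 to 8710764, minus strand. OIR libraries had 278, 236 and 273 CPM and normal libraries 276, 259.9 and 276 CPM. The groups overlapped almost fully. Its log2 change was -0.05 (95% interval -0.25 to 0.16; edgeR adjusted p of 0.718), and it was 0.01 without OIR replicate 2.

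Glul, whose enzyme turns glutamate and ammonia into glutamine, was lower in OIR. Its locus is on chromosome 1, 153899944 to 153909723, plus strand. OIR libraries had 1538, 1407 and 1842 CPM and normal libraries 2631, 2292 and 2181 CPM. The lowest normal library was above the highest OIR library. Means were 1596 ± 223 CPM in OIR and 2368 ± 234 CPM in normal retina (SD, n = 3 each), a log2 change of -0.57 with a standard error of 0.108 (edgeR adjusted p of 0.00416). Of the 50-base words of Glul transcripts, 12.6% also occur in transcripts of other genes, mainly the processed pseudogene Glns-ps1, which had 87 counts over the 6 libraries. The log2 ratio of Slc1a3 to Glul counts averaged -2.60 ± 0.145 in OIR and -3.12 ± 0.137 in normal libraries (SD, n = 3 each). It was higher by 0.52 in OIR, without overlap (exact two-sided permutation p = 0.1, the smallest possible).

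Slc4a4 encodes the sodium-bicarbonate cotransporter NBCe1, which Müller cells use to move bicarbonate with sodium and so buffer acid. It was the 1 gene of the 9 that rose. It lies on chromosome 5, 88886818 to 89239653, plus strand. OIR libraries had 36.4, 32.7 and 33.4 CPM and normal libraries 18.8, 19.9 and 20.3 CPM. Each group was tight and the gap between them was wider than either. Means were 34.2 ± 1.98 CPM in OIR and 19.7 ± 0.819 CPM in normal retina (SD, n = 3 each). The log2 change was 0.80 with a standard error of 0.0927 (edgeR adjusted p of 0.000196).

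Abca8a, an ABC-family transporter of lipids, had the largest fall of the 9. It lies on chromosome 11, 110025634 to 110095978, minus strand, 970.2 kb from Kcnj2. OIR libraries had 135, 102 and 135 CPM and normal libraries 250.3, 226 and 260.1 CPM, with every OIR library far below every normal one. The means were 124 ± 18.8 CPM in OIR and 245 ± 17.6 CPM in normal retina (SD, n = 3 each). The log2 change was -0.99 with a standard error of 0.106 (edgeR adjusted p of 0.00011). Its neighbour and close relative Abca8b, 29.8 kb away, differed by 0.18 on the log2 scale (adjusted p of 0.387 in edgeR), with 31.4 ± 2.30 CPM in OIR and 27.7 ± 5.13 CPM in normal retina (SD, n = 3 each). Only 1.64% of the 50-base words of Abca8a transcripts are shared with other genes, Abca8b first among them.

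Gpr37, a G protein-coupled receptor for which prosaposin is a reported ligand, was lower but uneven in OIR. The locus is on chromosome 6, 25665878 to 25690729, minus strand. OIR libraries had 192, 114 and 183 CPM, whereas normal libraries had 239, 234 and 240.0 CPM. OIR replicate 2 stood far below the other OIR libraries, and the spread was 26.2% of the mean in OIR, against 1.24% in normal retina. Means were 163 ± 42.9 CPM in OIR and 238 ± 2.96 CPM in normal retina (SD, n = 3 each), a log2 change of -0.54 with a standard error of 0.154 (edgeR adjusted p of 0.0311). The change was -0.35 without OIR replicate 2 (edgeR adjusted p of 0.0169), and without normal replicate 3 the call was lost (-0.54, edgeR adjusted p of 0.113).

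Dkk3, a secreted relative of the Dickkopf Wnt inhibitors that Müller cells release, was near the threshold. The gene is on chromosome 7, 112116017 to 112159057, minus strand. OIR libraries had 741, 696 and 836 CPM and normal libraries 924, 871 and 864 CPM. The groups did not overlap, with means of 758 ± 71.6 CPM in OIR and 886 ± 32.5 CPM in normal retina (SD, n = 3 each). The log2 change was -0.23 (95% interval -0.45 to -0.0018, edgeR adjusted p of 0.076). Dkk3 passed in DESeq2 (-0.23, adjusted p of 0.0327) and without OIR replicate 3 (-0.32, edgeR adjusted p of 0.033). It also passed with no filter on low counts (edgeR adjusted p of 0.0171), a setting that also called the lens gene Cryaa.

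**Figure D2:**
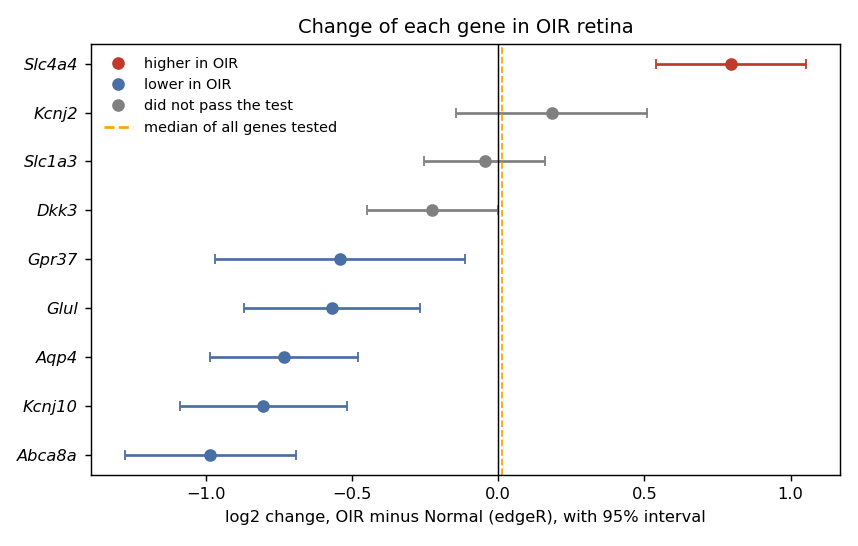
Log2 change of each gene, OIR minus normal, from edgeR (points) with its 95% interval from the standard error and 4 residual degrees of freedom (bars). The dashed line is the median of all genes tested, 0.01. Intervals of the 5 genes called lower lie below 0, that of Slc4a4 lies above 0, and those of Slc1a3 and Kcnj2 include it. That of Dkk3, which did not pass, lies just below 0, with an upper end of -0.0018.

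In CPM, the 9 genes were lowest of the 3 OIR libraries in OIR replicate 2, whether they were lower or higher in OIR than in normal retina. For Kcnj2 and Slc4a4 the gaps were small, with 272 against 277 and 554 against 569 counts in OIR replicates 2 and 3. In TPM the order of these replicates was reversed for Kcnj2 (10.99 against 10.96). In CPM, 32.6% of all genes tested were lowest in OIR replicate 2. The same held for 7 of 13 Müller identity genes, 6 of 8 microglial, 4 of 6 bipolar and 4 of 6 amacrine markers, 1 of 14 reactive glia genes and none of 6 cone markers, and these differences between lists were not tested. Reactive glia genes summed to 1457 CPM in OIR replicate 2, against 1354 and 1048 CPM in OIR replicates 1 and 3. OIR replicate 2 had 16680699 counts and a TMM factor of 1.02, within the range of the other OIR libraries. Without it, the log2 change was -0.71 for Kcnj10, -0.67 for Aqp4, -0.49 for Glul, -0.87 for Abca8a and 0.82 for Slc4a4, and these genes and Gpr37 still passed.

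OIR replicate 2 was also the only male OIR library, so its sex and the library itself cannot be told apart. Among males (1 OIR and 2 normal libraries) the difference in log2 CPM was -1.10 for Kcnj10, -0.86 for Aqp4, -0.77 for Glul, -1.32 for Abca8a, -1.07 for Gpr37 and 0.74 for Slc4a4. Among females (2 OIR and 1 normal libraries) it was -0.57 for Kcnj10, -0.71 for Aqp4, -0.45 for Glul, -0.74 for Abca8a, -0.32 for Gpr37 and 0.80 for Slc4a4. The directions were the same in each sex for these 6 genes. With sex as a covariate the same 6 genes passed, with adjusted p between 0.0002 and 0.00766 in edgeR.

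Per length, the 9 genes covered a wide range of levels. In transcripts per 1e6 transcripts (TPM, from counts and the deposited gene length), Glul had 1798 ± 227 in OIR and 2566 ± 113 in normal retina (SD, n = 3 each), and ranked 19 among all genes in normal retina. Dkk3 came next with 845 ± 70.1 TPM in OIR and 953 ± 40.8 TPM in normal retina. In normal retina Gpr37 (142 ± 9.82 TPM), Abca8a (141 ± 11.3 TPM) and Slc1a3 (115 ± 6.76 TPM) followed, then Aqp4 (83.9 ± 12.6 TPM) and Kcnj10 (69.5 ± 4.00 TPM). Gpr37 and Abca8a did not differ beyond their spread. In OIR retina Slc1a3 came after Dkk3 with 115 ± 11.3 TPM, above Gpr37 at 101 ± 27.3 TPM and Abca8a at 74.1 ± 11.7 TPM, although Gpr37 and Slc1a3 lay within 1 SD of each other. Lowest were Kcnj2 and Slc4a4, with 11.5 ± 0.862 and 11.9 ± 0.966 TPM in OIR and 9.78 ± 1.45 and 6.59 ± 0.736 TPM in normal retina. Slc4a4 was below Kcnj2 in normal retina and level with it in OIR retina.

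Relative to Rlbp1, the gene of the retinoid-binding protein CRALBP that marks Müller cells, the 9 genes split. Rlbp1 itself had 323, 338 and 408 CPM in OIR libraries and 613, 485 and 507 CPM in normal libraries, a log2 change of -0.59 (adjusted p of 0.00376 in edgeR). The pigment epithelium also expresses it, and 6 of 7 pigment epithelium markers were lower in OIR, with summed levels of 106 to 121 CPM in OIR and 193 to 328 CPM in normal retina; their part in the Rlbp1 level was not tested. The log2 ratio to Rlbp1 differed between OIR and normal libraries by 0.01 for Glul, 0.01 for Gpr37, -0.15 for Aqp4, -0.22 for Kcnj10 and -0.41 for Abca8a, each with overlapping libraries (exact two-sided permutation p between 0.2 and 1). It was higher in every OIR library by 0.36 for Dkk3, 0.54 for Slc1a3, 0.77 for Kcnj2 and 1.38 for Slc4a4 (exact permutation p = 0.1 each, the smallest possible, and 0.2 adjusted over the 12 ratios computed).

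**Figure D3:**
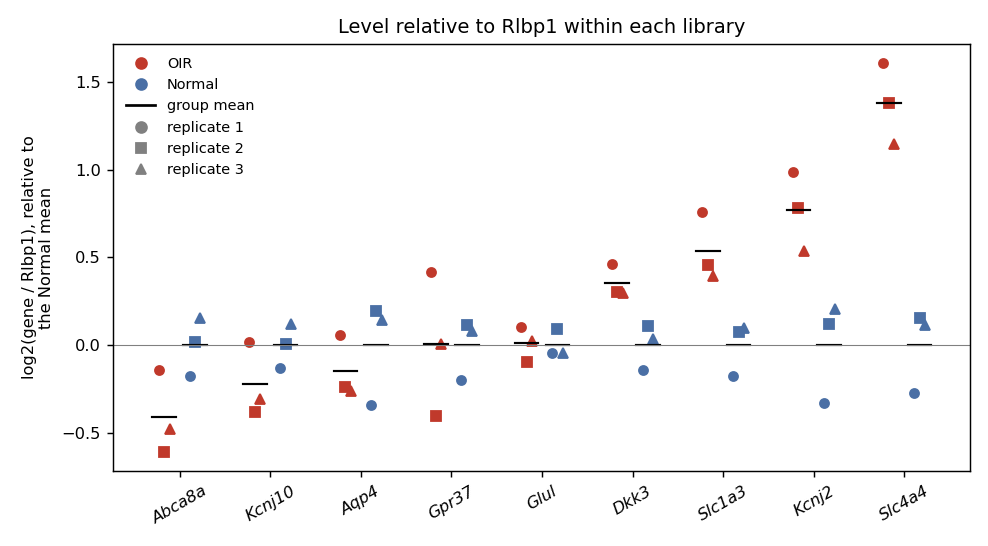
Log2 ratio of each gene's counts to Rlbp1 counts within a library, set to 0 at the normal mean (y axis), for the 3 OIR and 3 normal libraries, with the replicate shown by the symbol and group means as bars. Dkk3, Slc1a3, Kcnj2 and Slc4a4 lie higher in every OIR library, and the others overlap.

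Of 13 other markers of Müller identity, 5 rose (Vim, Cd9, Sox9, Sox2 and Sox8), 1 fell (Rlbp1) and 7 did not pass, with a median log2 change of 0.14. The intermediate filament gene Vim had 646 ± 8.13 CPM in OIR and 217 ± 1.54 CPM in normal retina (SD, n = 3 each; log2 change 1.57). The transcription factor gene Sox9, which drives glial fate, had 53.0 ± 4.67 CPM in OIR and 27.8 ± 2.30 CPM in normal retina (log2 change 0.93). The tetraspanin gene Cd9 rose by 1.03 on the log2 scale, with edgeR adjusted p of 2.74e-05. Sox2 did not pass without OIR replicate 2 (0.35) or normal replicate 3 (0.36). Sox8 did not pass without OIR replicate 1 or 3 or normal replicate 2 or 3 (0.27 to 0.34), nor with limma-voom, the replicate block or sex as a covariate. Summed over the list, levels were 2821 to 3035 CPM in OIR and 2217 to 2679 CPM in normal retina. Vim, whose means are given above, accounts for much of that difference. All 14 reactive glia genes rose, with a median log2 change of 2.66 and sums of 1048 to 1457 CPM in OIR and 316 to 338 CPM in normal retina. Of 7 astrocyte markers, 3 rose (Gfap, Aldh1l1 and Pdgfra) and Slc39a12 fell, a call lost without normal replicate 3 (log2 change -0.85, edgeR adjusted p of 0.0622). Gfap is also 1 of the 14 reactive glia genes and Pdgfra is also a fibroblast marker, so the rises of these lists are not independent.

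Among other inward-rectifier channels, 6 of 9 tested fell and 1 rose, with a median log2 change of -0.50. Of those that fell, Kcnj13 was barely detected, with 38 counts over the 3 OIR libraries and 95 over the 3 normal ones. It is also 1 of the 7 pigment epithelium markers. Kcnj12 passed although its groups overlapped (edgeR adjusted p of 0.0443). Kcnj9, 11.9 kb from Kcnj10 and known for neuronal Kir3.3, had 66.3 ± 1.23 CPM in OIR and 98.9 ± 5.53 CPM in normal retina (SD, n = 3 each; log2 change -0.58, edgeR adjusted p of 0.00034). Kcnj14, the most abundant of them by CPM, had a log2 change of -0.36 and Kcnj3 one of -0.53. Kcnj14 did not pass without OIR replicate 1 (-0.33, adjusted p of 0.0513 in edgeR), nor Kcnj3 without normal replicate 3 (-0.46, adjusted p of 0.0531). Kcnj8, the Kir6.1 channel gene of pericytes, rose by 1.23 on the log2 scale; of the 7 mural markers, which include it, 6 rose. Kcnj16, 38.2 kb from Kcnj2, encodes Kir5.1, which pairs with Kir4.1; it was named after its values were seen and was too low to test. It had 2 counts over the 3 OIR libraries and 26 over the 3 normal ones, a ratio of 13.2 for normal over OIR with a 95% Clopper-Pearson interval of 3.31 to 115, which covers counting error only.

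Of 11 genes of the complex that anchors Kir4.1 and aquaporin 4 at endfeet, 2 rose, 1 fell and 8 did not pass, with a median log2 change of -0.08. The heparan sulphate proteoglycan gene Agrn had 258 ± 32.9 CPM in OIR and 143 ± 5.74 CPM in normal retina (SD, n = 3 each; log2 change 0.85, edgeR adjusted p of 9.85e-05). The dystroglycan gene Dag1 had a log2 change of 0.26 (adjusted p of 0.0335 in edgeR) and the dystrobrevin gene Dtnb one of -0.23 (edgeR adjusted p of 0.0364). Dag1 lost its call without OIR replicate 1 or 3 or normal replicate 2 or 3, with changes of 0.21 to 0.28, and with sex as a covariate (edgeR adjusted p of 0.0804). Dtnb lost it without any 1 of 5 libraries, normal replicate 1 being the exception, and also in DESeq2 (adjusted p of 0.0702), with library totals alone, with no filter, with the replicate block and with sex as a covariate (edgeR adjusted p of 0.0754 to 0.0983). The dystrophin gene Dmd had a log2 change of 0.51 that did not pass (edgeR adjusted p of 0.128), but it passed with no filter on low counts (0.50) and without normal replicate 2 (0.87, edgeR adjusted p of 0.00119).

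Of 5 other aquaporin genes tested, Aqp1 rose and Aqp9 and Aqp11 fell. Aqp9 was barely detected, with 11 counts over the 3 OIR libraries and 54 over the 3 normal ones. Aqp1, the other main retinal water channel, which photoreceptors and amacrine cells carry, had 191 ± 8.35 CPM in OIR and 133 ± 9.18 CPM in normal retina (SD, n = 3 each; log2 change 0.53, edgeR adjusted p of 0.000577). Aqp4 and Aqp1 thus passed in opposite directions. Aqp9 and Aqp11 each lost the call without OIR replicate 1 (-2.04 and -0.44), and Aqp11 also without normal replicate 3 (-0.54). Of 11 other potassium and volume genes, 3 fell: Atp1b1, Kcnk1 and Kcnma1 had log2 changes of -0.49, -0.63 and -0.61.

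Of 16 other genes of glutamate and glutamine handling, 2 rose, 4 fell and 10 did not pass, with a median log2 change of -0.04. Slc38a1, a glutamine transporter, had 243 ± 13.5 CPM in OIR and 338 ± 29.2 CPM in normal retina (SD, n = 3 each; log2 change -0.47, edgeR adjusted p of 0.00185). The liver-type glutaminase gene Gls2 had 10.1 ± 1.58 CPM in OIR and 4.33 ± 0.509 CPM in normal retina (log2 change 1.22), and the neutral amino acid transporter gene Slc1a4 rose by 0.91. The neuronal glutamate transporter gene Slc1a1 had a log2 change of -0.37 (adjusted p of 0.00556 in edgeR).

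Of 16 other genes of acid-base and lactate transport, 8 fell and 2 rose, with a median log2 change of -0.38. The Slc4a4 relatives Slc4a3 and Slc4a5 had 115 ± 10.9 and 57.5 ± 4.15 CPM in OIR and 183 ± 8.31 and 88.2 ± 1.58 CPM in normal retina (SD, n = 3 each; log2 changes of -0.66 and -0.62). The carbonic anhydrase gene Car2, which makes bicarbonate, had a log2 change of -0.47. The lactate exporter gene Slc16a3, a glycolytic hypoxia gene, had 161 ± 6.43 CPM in OIR and 71.0 ± 9.71 CPM in normal retina (log2 change 1.18, edgeR adjusted p of 1.72e-05), and its chaperone gene Bsg also rose.

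Among 10 ABCA transporters tested besides Abca8a, the cholesterol exporter gene Abca1 rose by 0.88 on the log2 scale, and Abca2 and the photoreceptor gene Abca4 had log2 changes of -0.35 and -0.28. Abca4 did not pass without OIR replicate 1 (-0.25) or with the replicate number as a block (-0.28, edgeR adjusted p of 0.0533). Of the relatives and reported partner of Gpr37, the endothelin receptor genes Ednra and Ednrb rose by 1.57 and 0.87, and neither Gpr37l1 nor the prosaposin gene Psap passed, with log2 changes of 0.69 and -0.21. Psap passed in DESeq2 (adjusted p of 0.0465), with no filter and without normal replicate 2 (-0.27). Around Dkk3, the Dickkopf receptor gene Kremen1 rose by 0.92 and the Wnt co-receptor gene Lrp5 by 0.60, while Dkk1, Dkk4 and Dkkl1 were too low to test.

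**Figure D4:**
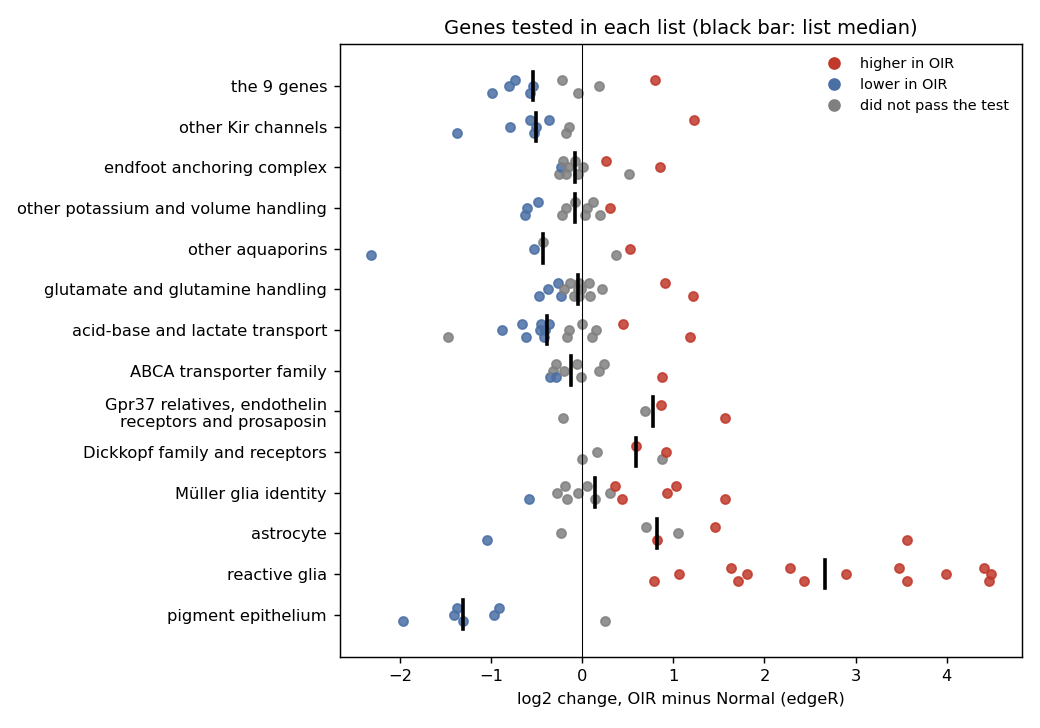
Log2 change, OIR minus normal, of every tested gene (points) in the lists around the 9 genes, with the median of each list as a black bar. The 9 genes and the other Kir channels have medians of -0.54 and -0.50, the Müller identity list one of 0.14 and the reactive glia list one of 2.66.

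Among markers of retinal neurons, 5 of 6 bipolar, 5 of 6 amacrine, 3 of 6 rod, 2 of 4 horizontal and 1 of 6 cone markers fell. Ganglion cell markers summed to 636 to 706 CPM in OIR and 588 to 943 CPM in normal retina. Bipolar markers summed to 1125 to 1215 CPM in OIR and 1602 to 1699.9 CPM in normal retina. Endothelial markers rose in 8 of 8 cases, microglial markers in 4 of 8 and fibroblast markers in 3 of 4. Of 4 oligodendrocyte markers tested, Cnp rose, while Mbp had 32.1 ± 4.47 CPM in OIR and 36.2 ± 3.45 CPM in normal retina (SD, n = 3 each). The part of these cell types in the levels of the 9 genes was not tested.

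Over the 6 libraries, the genes whose pattern lay nearest to that of Kcnj10 were the glycine receptor gene Glra2, Rhpn2, the trophoblast glycoprotein gene Tpbg, the phospholipase gene Gpld1 and the receptor gene Gpr85. Likeness was the root-mean-square difference in log2 CPM, each gene centred on its own mean, over 10333 candidate genes of at least 10 CPM, and it was 0.0634 to 0.0838 for these 5. Abca8a (0.0971) and Aqp4 (0.127) had 10 and 26 candidates nearer to Kcnj10 than they were, and Slc4a4 (0.810) had 9873. Glra2 had 19.9 ± 2.35 CPM in OIR and 34.2 ± 4.53 CPM in normal retina (SD, n = 3 each).

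Promoter windows from RefSeq (GRCm38.p6) were taken for 7 of the 9 genes, all but Aqp4 and Dkk3. Each holds 300 bases, from 250 before to 50 after a start site. Those of the gene with the largest fall, of Kcnj10, of Kcnj2 beside it in family and of Slc4a4, which moved the other way, are shown 5′ to 3′ on the gene's strand. They were searched on both strands for the hypoxia response element core ACGTG, the STAT motif TTCNNNGAA, the AP-1 motif TGANTCA and the SOX motif ACAAT, whose matches are in capitals.
Abca8a, chr11:110095888-110096187, minus strand: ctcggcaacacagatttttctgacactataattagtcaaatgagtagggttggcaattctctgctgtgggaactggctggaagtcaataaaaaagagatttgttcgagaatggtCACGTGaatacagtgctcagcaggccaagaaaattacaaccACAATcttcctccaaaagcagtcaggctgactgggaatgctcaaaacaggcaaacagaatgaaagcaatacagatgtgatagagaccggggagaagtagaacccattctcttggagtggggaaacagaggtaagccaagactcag
Kcnj10, chr1:172340960-172341259, plus strand: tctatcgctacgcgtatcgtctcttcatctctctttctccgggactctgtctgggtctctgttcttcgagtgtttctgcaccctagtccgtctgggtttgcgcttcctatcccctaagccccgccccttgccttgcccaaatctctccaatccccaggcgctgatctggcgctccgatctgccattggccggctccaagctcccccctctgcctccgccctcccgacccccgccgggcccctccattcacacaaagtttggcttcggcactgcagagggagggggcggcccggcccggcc
Kcnj2, chr11:111065914-111066213, plus strand: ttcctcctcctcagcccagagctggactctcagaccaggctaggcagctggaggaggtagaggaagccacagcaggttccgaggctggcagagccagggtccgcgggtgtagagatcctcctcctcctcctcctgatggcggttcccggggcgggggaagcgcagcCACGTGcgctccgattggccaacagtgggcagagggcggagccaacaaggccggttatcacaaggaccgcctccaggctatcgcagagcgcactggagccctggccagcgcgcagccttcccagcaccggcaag
Slc4a4, the first of its 2 promoters, chr5:88887010-88887309, plus strand: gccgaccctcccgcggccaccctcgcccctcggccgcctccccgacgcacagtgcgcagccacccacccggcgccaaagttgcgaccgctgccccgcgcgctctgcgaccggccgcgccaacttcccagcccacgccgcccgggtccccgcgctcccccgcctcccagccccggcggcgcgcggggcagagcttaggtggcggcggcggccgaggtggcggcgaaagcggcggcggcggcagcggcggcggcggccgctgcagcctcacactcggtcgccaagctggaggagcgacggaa

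In Abca8a and Kcnj2 the core lies in a palindrome that matches on each strand, so the 2 matches overlap, with first bases 136 and 135 before the start in Abca8a and 84 and 83 before it in Kcnj2. Abca8a also holds a SOX match 95 bases before the start. Gpr37 and Slc1a3 hold the core as well, and Slc1a3 also a STAT and a SOX match, whereas the windows of Glul, Kcnj10 and Slc4a4 hold none of the 4 motifs. Over 32817 such promoter windows, 19.6% hold the core, 8.29% the STAT, 7.81% the AP-1 and 31% the SOX motif. Among the genes searched, the core thus stands in promoters of 2 genes that fell and 2 that did not pass. Aqp4, which also fell, was left out of the search, and no promoter of Dkk3 was at hand. A match in these letters shows no binding. GC content ranged from 44.3% in Abca8a to 80% in the Slc4a4 window shown.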

How the data were processed

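RNA had been isolated from retina with TRIzol and libraries made with the NEBNext Ultra RNA kit, per the labels' protocols. The authors deposited 1 table of raw counts by gene, with gene length, position and biotype. The submitters' processing notes name HISAT2 2.0.5 and featureCounts 1.5.0-p3, CASAVA 1.8, fastp, the mm10 build and DESeq2 1.20.0. No annotation release, strand setting or read filter is stated in the labels or headers, so reads of overlapping genes on opposite strands may not be separated. Columns were matched to samples by name: OIR, day and number, and columns without OIR to the normal samples.

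Counts were tested with edgeR 4.0.16 (R 4.3.3; glmQLFit, glmQLFTest), TMM scaling, filterByExpr (minimum count 10, total 15), 6 libraries and no covariate; genes left out held 0.164% of counts. CPM is per 1e6 TMM-scaled counts. Standard errors are the log2 change over the square root of F. Ratios used counts plus 2. Libraries of one group were not copies of each other: their chi-square, divided by its degrees of freedom, was 7.20 to 23.1 (genes of 40 or more counts). Overlaps and shared words came from GENCODE vM21 (mm10), whose ends for Aqp4 differ from those deposited.

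Members, gene lists and tests were chosen with earlier results of these data known. Named genes are the 9, up to 4 members per list with the smallest adjusted p (or the 2 most abundant where fewer than 2 passed), and the 5 nearest to Kcnj10; others (such as Sox2, Sox8, Kcnj16, Abca8b, Dmd, Bsg, Gpr37l1, Psap, Dkk1, Dkk4 and Dkkl1) were picked once values were known. Some genes that the rule names are not reported here. The alternatives tried were DESeq2 1.42.0, limma-voom (limma 3.58.1), other scalings and filters, the replicate number as a block, sex as a covariate, a threshold of 0.01 and leaving out each library.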

Additional observations from a re-analysis of the deposited data

How the results depend on the processing

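Kcnj10, Aqp4, Glul, Abca8a and Slc4a4 kept their direction and call in all 14 alternatives with a threshold of 0.05, over log2 changes of -0.87 to -0.71, -0.80 to -0.67, -0.70 to -0.49, -1.06 to -0.87 and 0.74 to 0.84. The lower genes among the 9 numbered 4 to 6 when 1 library was left out, and 4 at an adjusted p under 0.01, where Gpr37 was lost; Slc4a4 was the 1 higher gene throughout. Counts over all genes moved more: leaving out 1 library gave 1237 to 2097 higher and 761 to 1734 lower genes, and an adjusted p under 0.01 gave 1116 and 647, against 1901 and 1493. The lower genes numbered 761 without OIR replicate 1, 860 without OIR replicate 2 and 769 without normal replicate 3, and the higher genes 1237 without normal replicate 3. Fewer samples or a stricter threshold are part of those alternatives. With library totals alone 64.9% of calls were higher, against 56.0%, and the median of all genes was 0.06.

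With no filter on low counts the lens gene Cryaa passed (edgeR adjusted p of 1.52e-09), although its rise rested on OIR replicate 3. Passes in that setting, among them those of Dkk3, Dmd and Psap, therefore carry less weight. In the main fit the log2 change of Cryaa was 3.03 and did not pass (edgeR adjusted p of 0.179). It ran from -0.14 without OIR replicate 3, the library with 2979 CPM of Cryaa, to 3.61. Some values near 0 also changed sign when 1 library was left out, and the cause was not tested: the log2 change of Slc1a3 ran from -0.094 to 0.015, and the differences in log2 ratio from -0.030 to 0.17 for Aqp4 over Kcnj10, -0.033 to 0.064 for Glul over Rlbp1 and -0.20 to 0.21 for Gpr37 over Rlbp1. Of 1364 values for 91 other genes, 1294 kept their direction and side of the threshold, 53 lost a call, 16 gained one and 1 changed sign.

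The replicate numbers gave no sign of pairing the samples: deviations of same-numbered libraries correlated at 0.0612, -0.164 and 0.0740. Those of differently numbered libraries correlated at -0.184 to 0.0977. With 3 libraries per group, each group centred on its own mean, these values cannot exclude pairing. With the number as a block, the replicate block fit called 1680 higher and 1166 lower genes and the same counts of 5 lower and 1 higher among the 9. Each of the 9 genes had 224 or more counts in every library; for Kcnj2 and Slc4a4, the lowest, the spread between libraries was close to counting error, so depth limits their precision.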
